A study of Mus musculus with 18 samples.

Results

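The transcriptional effect of PD-L1 blockade was examined in CD3+ tumor-infiltrating lymphocytes (TILs) of wild-type mice. All wild-type samples were taken by their genotype and treatment labels, 9 of the 18 samples of the study. They were 3 Nr2f6+/+ samples given the control antibody IgG2b (clone LTF-2) and 6 Nr2f6+/+ samples given anti-PD-L1 (αPD-L1, clone 10F.9G2). The mice were C57BL/6 and between 8 and 12 weeks old. All had been injected s.c. with 500000 cells of B16-OVA, a mouse melanoma line that carries ovalbumin as a model antigen. Antibody (0.5 mg) was given i.p. repeatedly from d3, and tumors were taken at d14. T cells were enriched with CD4 and CD8 beads, pooled and sorted for CD3, so that every value averages over CD4+ and CD8+ cells. The other 9 samples, 3 IgG2b and 6 αPD-L1, came from Nr2f6-/- mice, which lack the nuclear receptor NR2F6 in all cells. They were used to set the same contrast beside the wild-type one. They also entered the choice of genes tested and the estimate of the spread in the test across genes.

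PD-1 is an inhibitory receptor that T cells display after activation. Its ligands PD-L1 and PD-L2 are carried by tumor cells, macrophages and dendritic cells, and PD-1 signaling recruits the phosphatase SHP-2, which dampens signals from the T cell receptor and CD28. An antibody that blocks PD-L1 removes this brake and is used in melanoma therapy. In tumors, the response to blockade is known to depend on CD8+ T cells that keep the transcription factor TCF-1 and can still divide.

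Libraries read the 3′ ends of transcripts, and values are read counts divided by 1 size factor per library (normalized counts). The 9 libraries held 13963967 to 18609482 reads on genes and detected 11107 to 13655 genes. The library numbers form 2 sets. The second set held only αPD-L1 samples (replicates 4 to 6), so the test across genes was also run for each set of αPD-L1 samples against the same IgG2b samples. The deleted gene Nr2f6 had no read in any of the 9 Nr2f6-/- libraries and 20.2 to 201 normalized counts in all 9 wild-type libraries. The T cell label was checked against 17 T cell genes, all of them measured, whose summed level was 87466 to 95702 with IgG2b and 87349 to 122692 with αPD-L1. None of the 17 passed the test between treatments, and their median log2 difference was 0.17. Cd8a and Cd4 were both read in every sample. The log2 ratio of Cd8a to Cd4 was 0.886 ± 0.326 (SD, n = 3) with IgG2b and 1.15 ± 1.23 (SD, n = 6) with αPD-L1, and did not differ beyond the spread of the samples (exact permutation test, two-sided, p = 0.726, smallest possible 0.0119). With the first set of αPD-L1 samples alone the difference was 0.914 in place of 0.267 (exact permutation test, p = 0.2, smallest possible 0.1).

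With αPD-L1, 29 genes were lower than with IgG2b and none was higher, of 11992 genes tested (limma over all 18 samples on log2(normalized count + 1), Benjamini-Hochberg adjusted p under 0.05). The called share was 0.242% of the genes tested. The 29 genes fell into 5 kinds, with 8 genes outside them. The kinds were early response genes of activated lymphocytes, the T cell transcription factor gene Tcf7, MHC class II genes, myeloid genes with the platelet chemokine gene Ppbp, and small nuclear RNA genes. In each of the 29 genes every αPD-L1 sample was below every IgG2b sample. The 29 were picked by p in these same samples, so this is no separate support for them. Over all genes tested, the groups did not overlap in 3.22% on the lower side and in 1.32% on the higher side. A log2 difference above 0 was found in 42.6% of all genes tested. All 29 were also lower in each set of αPD-L1 samples, which follows from groups that do not overlap with shared IgG2b samples. In the first set 18 of them had an adjusted p under 0.05, where 0.25% of all genes passed. With the second set 13 of them did, where 19 genes passed in all. The count rested on the few IgG2b samples. It was 10 without IgG2b replicate 1, 8 without replicate 2 and 6 without replicate 3. With only the wild-type groups in the fit it was 15, of which 14 were among the 29. On the recovered reads, edgeR called 19 genes, all lower, and DESeq2 called 94, of which 58 were lower and 36 higher. Of the 29 genes, 18 passed in edgeR and 23 in DESeq2. Ppbp, Arg1, Ccl24, Mmp19, Pdpn and Hes1, which had few or no reads with αPD-L1, passed in neither, and Vipr1, Tppp3, H2-Eb1, Gm26244 and Gm24407 passed in DESeq2 only. The median log2 difference of all genes was -0.10, and scaling the libraries to the same total moved it to -0.19.

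The list with the most genes called by limma was that of genes that lymphocytes switch on soon after stimulation. Of 22 such genes listed, 21 were tested and 7 were called, all lower: Fos, Fosl2, Egr1, Nr4a1, Dusp1, Tnfaip3 and Rgs2. In 12 of the 21 the groups did not overlap, against 3.22% of all genes, and 19 lay below 0. Their median log2 difference was -0.98, beside -0.10 for all genes. The summed level of the list was 76767 to 99219 normalized counts in the 3 IgG2b samples and 41366 to 59958 in the 6 αPD-L1 samples.

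**Figure D1:**
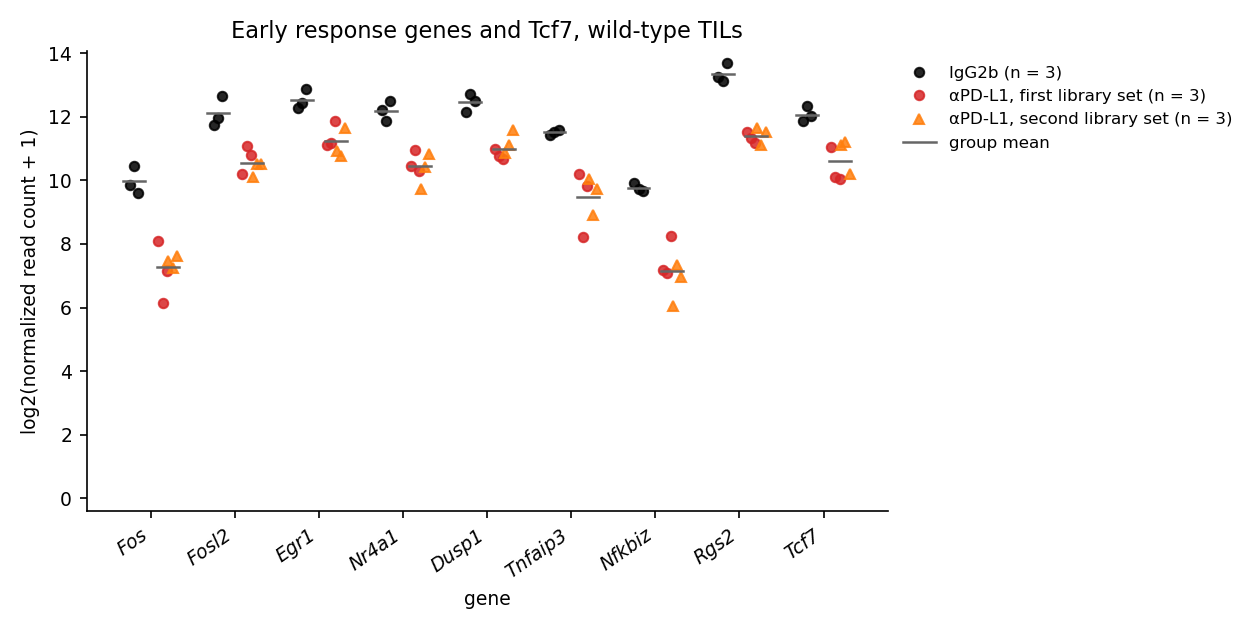
Normalized counts on the scale log2(count + 1) of 7 called early response genes, Nfkbiz and Tcf7 in each wild-type library, with black points for IgG2b, red points and orange triangles for the 2 library sets of αPD-L1, and lines for group means. In each gene all 6 αPD-L1 samples lie below the 3 IgG2b samples.

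The transcription factors of this list came first. Fos, a subunit of the AP-1 factor, had 923, 1411 and 782 normalized counts with IgG2b and 70.3 to 273 (median 162) with αPD-L1, and the log2 difference was -2.69 ± 0.52 (SE, adjusted p = 0.013). Even the highest αPD-L1 sample was well below the lowest IgG2b sample. Its relative Fosl2 had 3423, 4002 and 6387 normalized counts with IgG2b and 1107 to 2164 (median 1459) with αPD-L1 (-1.58 ± 0.30, adjusted p = 0.0115). The AP-1 partners Jun (-1.58 ± 0.37, adjusted p = 0.0599) and Junb (-1.65 ± 0.40, adjusted p = 0.0748) had groups that did not overlap but missed the threshold. Jund, the AP-1 member with the steadiest expression in most cells, had a log2 difference of -0.30 ± 0.31 and overlapping groups.

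Egr1 encodes a zinc finger factor induced through the MAP kinase pathway. It had 4956, 5505 and 7539 normalized counts with IgG2b and 1724 to 3748 (median 2273) with αPD-L1 (-1.28 ± 0.26, adjusted p = 0.0169). Nr4a1 encodes the nuclear receptor Nur77, whose transcript follows T cell receptor signaling and which is also counted among the factors of T cell exhaustion. It had 4697, 3721 and 5735 normalized counts with IgG2b and 851 to 1985 (median 1382) with αPD-L1 (-1.74 ± 0.32, adjusted p = 0.00927). Its relatives Nr4a2 (-0.50 ± 0.35) and Nr4a3 (-0.81 ± 0.42) had overlapping groups and did not pass.

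The called genes also held brakes on signaling. Dusp1 encodes a phosphatase that switches off MAP kinases and had 4565, 6791 and 5822 normalized counts with IgG2b and 1642 to 3089 (median 1938) with αPD-L1 (-1.47 ± 0.22, adjusted p = 0.000774). Tnfaip3 encodes A20, a ubiquitin-editing inhibitor of NF-κB, and had 2749, 2923 and 3063 against 295 to 1175 (median 880; -2.02 ± 0.38, adjusted p = 0.00927). Rgs2 encodes a protein that ends signals of G protein-coupled receptors. It had 9784, 8911 and 13258 normalized counts with IgG2b and 2219 to 3232 (median 2751) with αPD-L1 (-1.97 ± 0.28, adjusted p = 0.000387). Nfkbiz, which encodes the atypical nuclear IκB protein IκBζ and was not on the list, had 966, 846 and 809 normalized counts against 65.0 to 305 (median 140; -2.62 ± 0.50, adjusted p = 0.012). Not every fast gene was lower: Nfkbia (-0.07 ± 0.25), Dusp2 (0.32 ± 0.26), Rel (-0.06 ± 0.61), Cd69 (-0.50 ± 0.46) and Egr2 (0.03 ± 0.80) had overlapping groups.

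The promoter of Dusp1 is shown because it carries, in full, the cyclic AMP response element (CRE, TGACGTCA), a site known from many stimulus-induced genes. The sequence is the RefSeq promoter window of GRCm38.p6, from 250 bases before to 50 bases after the start, at chr17:26508423-26508722 on the minus strand, with the element in capitals at position -143, counting the start base as 0.
Dusp1: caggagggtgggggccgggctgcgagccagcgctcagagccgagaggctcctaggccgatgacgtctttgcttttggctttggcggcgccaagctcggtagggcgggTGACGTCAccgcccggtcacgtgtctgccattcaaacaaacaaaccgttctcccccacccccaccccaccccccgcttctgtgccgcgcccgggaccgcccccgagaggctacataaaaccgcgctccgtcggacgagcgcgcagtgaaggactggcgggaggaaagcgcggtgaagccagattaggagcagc
Of the 7 called early genes, 6 had a promoter entry, and only Dusp1 of these held TGACGTCA on either strand, which was found in 1.79% of all 32851 promoter windows. The AP-1 sequence TGANTCA was present in Tnfaip3 alone among the 6, and in 7.81% of all windows.

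Tcf7 encodes TCF-1, the factor of naive, memory and stem-like T cells. It had 3734, 5137 and 4134 normalized counts with IgG2b and 1046 to 2350 (median 1653) with αPD-L1, and the log2 difference was -1.45 ± 0.26 (adjusted p = 0.00912). All 6 treated samples lay below the 3 controls, with 2126, 1104 and 1046 in the first set and 2223, 2350 and 1180 in the second. Of the 14 stem-like and memory genes tested it was the only one called. Of these, 13 lay below 0, with a list median of -0.70. The groups did not overlap in 3 of the 14, namely Tcf7, Ccr7 and Klf2, against 3.22% of all genes on the lower side. Ccr7, the receptor that guides T cells to lymph nodes, had 715, 1265 and 1352 normalized counts against 108 to 685 (-1.45 ± 0.48, adjusted p = 0.363). Klf2, a factor of resting T cells that keeps the egress receptor S1pr1 on, had a log2 difference of -1.62 ± 0.57 (adjusted p = 0.436), and S1pr1 itself -1.04 ± 0.37 (adjusted p = 0.455). The interleukin-7 receptor gene Il7r had 2044, 1862 and 1078 normalized counts against 290 to 1420, so that its groups overlapped (-1.14 ± 0.39, adjusted p = 0.412). Id3 (-0.16 ± 0.47) and Slamf6 (-0.33 ± 0.48) showed little or no difference for their spread.

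MHC class II molecules present peptides to CD4+ T cells and are made by dendritic cells, macrophages and B cells, while mouse T cells are known to make little of them. The 3 genes of the classical molecules I-A and I-E that were listed were all lower with αPD-L1. H2-Aa, the I-A α chain, had 3784, 7607 and 5146 normalized counts with IgG2b and 379 to 3196 (median 1383) with αPD-L1 (-2.10 ± 0.41, adjusted p = 0.0159). H2-Ab1, the I-A β chain, had 2151, 3802 and 2292 against 225 to 1269 (median 598; -2.14 ± 0.40, adjusted p = 0.00927). H2-Eb1, the I-E β chain, had 1744, 3395 and 2818 against 512 to 1697 (median 785; -1.62 ± 0.36, adjusted p = 0.0482), so that its highest treated sample lay just below the lowest control. IgG2b replicate 2 held the highest value in all 3 genes. Cd74, the invariant chain that escorts class II molecules, had 729, 1168 and 698 normalized counts against 146 to 443 and missed the threshold (-1.71 ± 0.47, adjusted p = 0.173). Of the 10 class II genes tested 3 were called, 9 lay below 0 and 5 had groups that did not overlap, against 3.22% of all genes. The list median was -1.66.

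The promoters of H2-Aa and H2-Eb1 are printed because they share the sequence module by which class II genes are known to be switched on together, an X box followed by a Y box. Both are RefSeq windows of GRCm38.p6, H2-Aa at chr17:34287774-34288073 on the minus strand and H2-Eb1 at chr17:34305617-34305916 on the plus strand. Capitals mark the X box core GCAACT, the Y box CTGATTGG and, in H2-Aa, the element TGACGTCA that lies between them.
H2-Aa: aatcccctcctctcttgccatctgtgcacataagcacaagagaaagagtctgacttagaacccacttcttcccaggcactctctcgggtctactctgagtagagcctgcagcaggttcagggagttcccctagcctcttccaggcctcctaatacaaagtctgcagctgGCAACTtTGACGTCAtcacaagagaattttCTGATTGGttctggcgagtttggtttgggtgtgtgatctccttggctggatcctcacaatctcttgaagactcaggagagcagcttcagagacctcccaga
H2-Eb1: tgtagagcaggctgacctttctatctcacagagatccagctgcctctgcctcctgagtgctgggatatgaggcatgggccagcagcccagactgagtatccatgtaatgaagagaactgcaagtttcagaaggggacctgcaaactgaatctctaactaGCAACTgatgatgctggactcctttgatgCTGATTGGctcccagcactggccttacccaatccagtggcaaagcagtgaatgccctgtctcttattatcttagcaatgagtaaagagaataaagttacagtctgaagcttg
The X box core began at position -81 in H2-Aa and -91 in H2-Eb1, and the Y box at -51 and -62. The core GCAACT alone was present in 10.9% and CTGATTGG in 4.10% of the 32851 windows. Both on the same strand, with the Y box at most 40 bases after the X box core, were present in 9 windows (0.0274%), which belonged to H2-Aa, H2-Eb1, H2-Eb2 and 6 genes that are no class II genes. Of these 9 genes 6 were tested, and H2-Aa and H2-Eb1 were the only ones called. The other 5 class II genes with a window, among them H2-DMa and H2-Oa, did not hold the module in these letters. H2-Oa did hold the Y box, preceded by GCAACA, which differs from the X box core in its last letter only. Forms that differ by a letter were not searched, so these genes may still hold such a module. H2-DMa had a log2 difference of -0.22 ± 0.45 and H2-Oa of -1.23 ± 1.75, both with overlapping groups. Ciita, the coactivator that class II promoters depend on, was measured at a low level (-1.84 ± 1.54, adjusted p = 0.869).

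Most genes of macrophages and monocytes also lay below 0. Their list was chosen as a check on cells other than T cells. Of its 32 genes 30 were tested, 3 were called, all lower (Lyz2, Fcer1g and Arg1), 29 lay below 0 and 20 had groups that did not overlap. Of all genes tested, 42.6% lay above 0, and in 3.22% the groups did not overlap on the lower side. The list median was -3.20, and -3.34 and -2.55 for the first and second set of αPD-L1 samples. The summed level of the list was 36910 to 44847 normalized counts in the IgG2b samples and 11374 to 19246 in the αPD-L1 samples. No listed macrophage gene was at 0 in all IgG2b samples, and 1, Cd163, was at 0 in all αPD-L1 samples. Of the defining markers, Adgre1 (F4/80) had 365, 669 and 411 normalized counts with IgG2b and 0 to 247 with αPD-L1 (-3.73 ± 1.64, adjusted p = 0.621). The receptor gene Csf1r had 204, 278 and 488 against 13.6 to 270 with overlapping groups (-2.58 ± 1.30, adjusted p = 0.711). The part of these cells in the lower class II, early response and Tcf7 values was not tested. In sorted bulk samples, fewer cells of a type and less RNA per cell cannot be told apart.

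**Figure D2:**
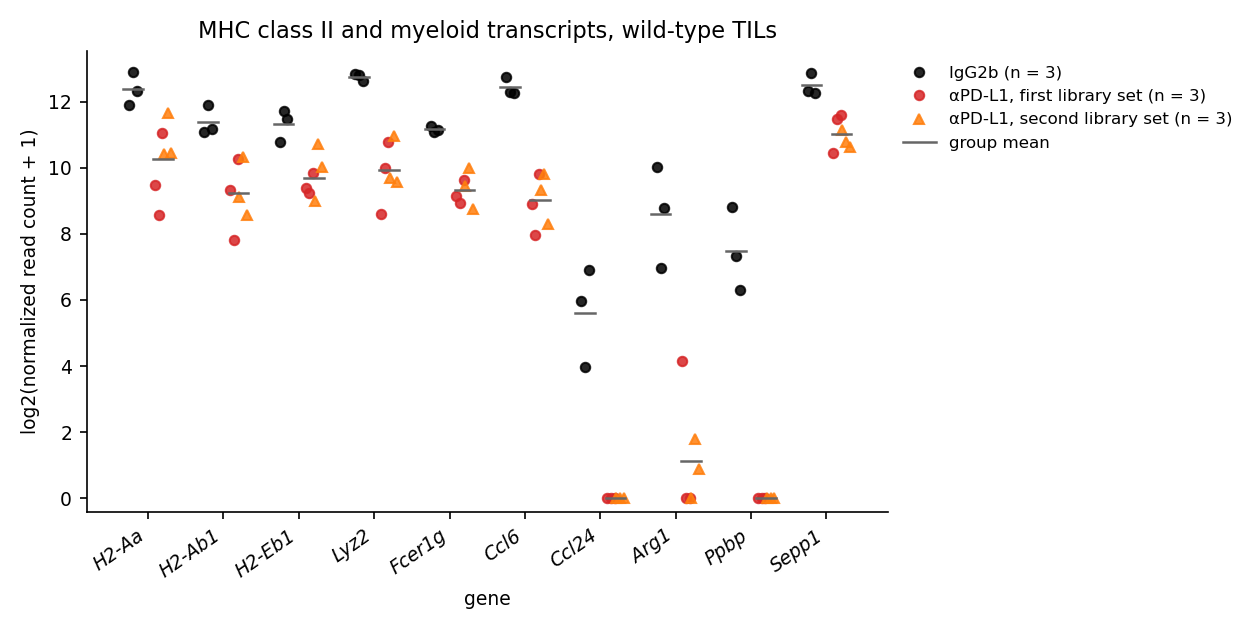
Normalized counts on the scale log2(count + 1) of MHC class II genes, myeloid genes, Ppbp and Sepp1 in each wild-type library. Symbols are as in the plot of early response genes. Ccl24 and Ppbp had no read in any of the 6 αPD-L1 samples, and in all 10 genes the αPD-L1 samples lie below the IgG2b samples.

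Lyz2, the lysozyme of macrophages and granulocytes, was among the calls that passed in every alternative. It had 7325, 7220 and 6244 normalized counts with IgG2b and 383 to 1979 (median 920) with αPD-L1 (-2.83 ± 0.39, adjusted p = 0.000387). The controls were close together, and the treated samples were spread more widely. Fcer1g, the signaling chain of Fc receptors, had 2437, 2187 and 2239 against 434 to 1016 (median 628; -1.84 ± 0.34, adjusted p = 0.00927). Arg1, the arginase of alternatively activated macrophages, had 1032, 125 and 443 normalized counts with IgG2b. With αPD-L1 it had no read in 3 samples and 0.858, 2.46 and 16.7 in the others (-7.46 ± 1.60, adjusted p = 0.0363). Its adjusted p was 0.156 in edgeR and 0.407 in DESeq2, and it passed in 7 of 24 alternatives.

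Chemokines of myeloid cells lay below 0 in all 12 members tested, of 14 listed. The list median was -3.34, 9 of the 12 had groups that did not overlap, against 3.22% of all genes, and 2 were called. The summed level was 11806 to 14199 normalized counts against 1952 to 4615. Ccl6, a CCR1 ligand made by macrophages, had 6891, 4995 and 4926 with IgG2b and 250 to 904 (median 557) with αPD-L1 (-3.42 ± 0.51, adjusted p = 0.000674). Ccl24, an eosinophil attractant, had 61.5, 14.6 and 119 normalized counts with IgG2b and no read in any treated sample. Its mean was at least 22.7-fold higher with IgG2b than the level of 3 reads per library, but it passed in 4 of 23 alternatives only. Cxcl2, a neutrophil attractant, had a log2 difference of -7.31 ± 1.75 (adjusted p = 0.0732), while Cxcl9, a ligand of CXCR3 induced by interferon-γ, had -0.21 ± 0.62.

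The platelet chemokine Ppbp had 452, 158 and 77.9 normalized counts with IgG2b and no read in any αPD-L1 sample, at least 80.3-fold lower against the level of 3 reads per library. Its adjusted p was 0.00136 in limma, 0.0867 in edgeR and 0.504 in DESeq2. It also had no read in any of the 9 Nr2f6-/- libraries, so that only the wild-type IgG2b samples held it. Pf4, the other platelet chemokine, had 2158, 2142 and 2269 normalized counts against 0 to 293 and missed the threshold (-5.18 ± 1.59, adjusted p = 0.281). Of the 13 platelet and megakaryocyte genes listed, 10 were at 0 in all IgG2b samples, among them Gp9, Gp5 and Itga2b, and 3 were tested.

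Other lists of non-T cells held no called gene. Dendritic cell genes were below 0 in all 10 members tested, of 12 listed (median -2.52), with a summed level of 1108 to 1210 against 345 to 1552. Neutrophil genes had 5 of 14 tested (median -3.51), with summed levels of 617 to 1210 against 25.5 to 1165. For B cells 5 of 12 were tested (median -0.75), with Cd79a and Ms4a1 at 0 in all IgG2b samples and summed levels of 2652 to 6958 against 1732 to 2942. NK cell genes had 5 of 8 tested (median -0.59, and 0.50 after quantile normalization). Their summed levels went the other way from this median, with 1764 to 2677 against 2455 to 4167. Melanocyte genes (9 of 11 tested, median 0.18), fibroblast and endothelial genes (9 of 14, -0.65) and erythroid genes (5 of 7, 0.37) completed these lists.

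**Figure D3:**
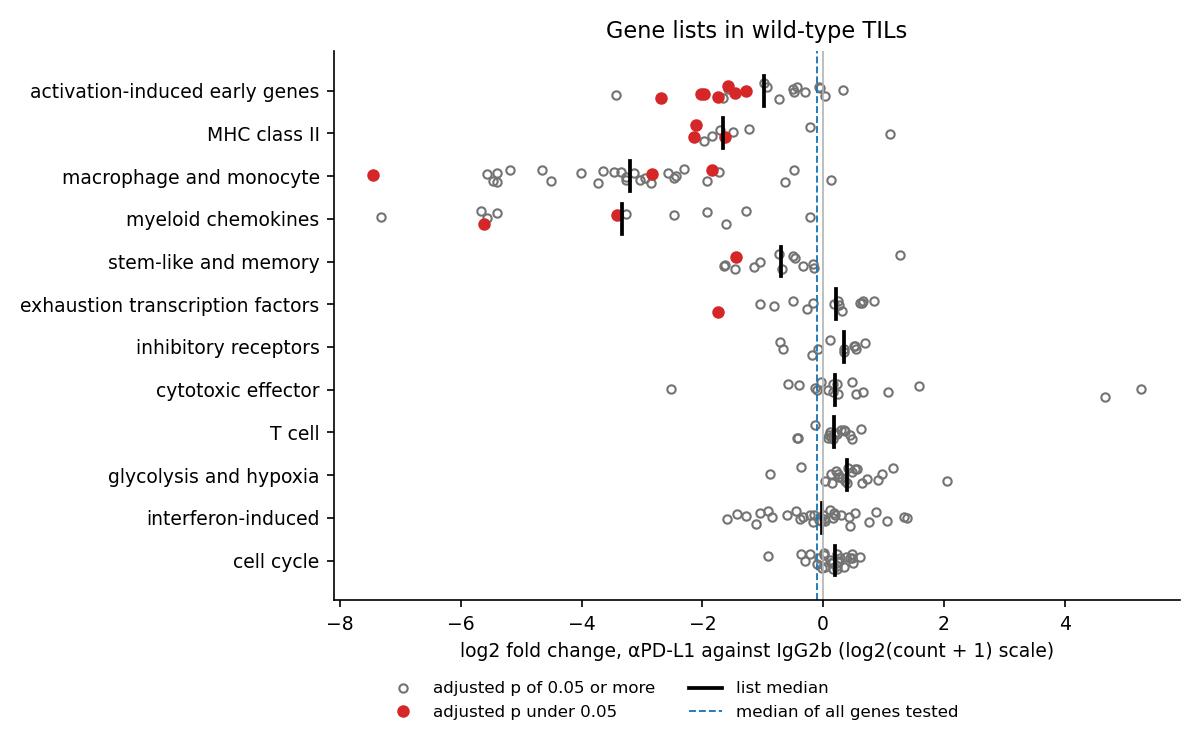
Log2 difference between αPD-L1 and IgG2b (horizontal axis, log2(count + 1) scale) of each tested member of 12 gene lists in wild-type TILs, with called genes in red, other genes as open circles, the list median as a black line and the median of all genes dashed. The lists of macrophage genes (median -3.20), myeloid chemokines (-3.34), MHC class II (-1.66) and early genes (-0.98) lie to the left.

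Besides Nfkbiz, 7 called genes stood outside these lists, and 2 of them were well expressed. Sepp1, which encodes the selenium carrier selenoprotein P, had 5116, 7522 and 4955 normalized counts with IgG2b and 1399 to 3073 (median 2008) with αPD-L1 (-1.48 ± 0.31, adjusted p = 0.0256). App, the amyloid precursor protein gene, had 1168, 658 and 1245 against 115 to 435 (median 168; -2.42 ± 0.50, adjusted p = 0.0256). The other 5 were low with IgG2b and at or near 0 with αPD-L1. The matrix metalloproteinase gene Mmp19 had 93.1, 81.3 and 34.8 normalized counts and no read in the treated samples, at least 24.4-fold lower, and passed in 6 of 23 alternatives. Pdpn, the gene of podoplanin, had 67.6, 42.7 and 71.3 and no read in the treated samples or in any Nr2f6-/- library, at least 21.2-fold lower. Vipr1, a receptor for vasoactive intestinal peptide, had 183, 94.8 and 109 against 0 to 2.09. Hes1, a target of Notch signaling, had 15.8, 269 and 31.5 against 0 to 1.04, so that 1 control held most of its signal, and passed in 7 of 23 alternatives. Ppbp, Pdpn and Hes1 had no read in any Nr2f6-/- library and reached the required mean of 10 normalized counts only through the wild-type IgG2b samples, where they were high. Ccl24, Mmp19 and Vipr1 also reached it only through those samples. Their means in Nr2f6-/- mice were 4.16, 21.7 and 19.8 with IgG2b and 0.155, 0.145 and 5.51 with αPD-L1. Tppp3, a tubulin-binding protein gene, had 186, 171 and 415 normalized counts and reads in 1 treated sample only (6.27).

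Another 4 of the 29 genes were small nuclear RNA (snRNA) genes by the GENCODE annotation, a class named after its values were seen. These RNAs form the core of the spliceosome, and they carry no poly(A) tail, which the 3′ library kit primes on. Gm24265 had 1113, 1222 and 800 normalized counts with IgG2b and 91.0 to 266 (median 102) with αPD-L1 (-3.12 ± 0.44, adjusted p = 0.000387). Gm24407, its neighbor on chromosome 5, had 469, 498 and 594 against 15.8 to 157 (-3.30 ± 0.72, adjusted p = 0.0416). Gm24497 on chromosome 1 had 148, 184 and 38.97 against no read in the treated samples, at least 43.4-fold lower, and Gm26244 had 474, 413 and 278 against 5.10 to 105 (-4.33 ± 0.96, adjusted p = 0.0454).

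The sequences of the pair on chromosome 5 are shown because they are near-identical copies, so that reads could be split between them. They lie on the plus strand of GRCm38, at chr5:115489459-115489599 (Gm24265) and chr5:115490254-115490394 (Gm24407), and their start is that of the U4 snRNA. Capitals mark the 2 of 141 positions at which they differ (GENCODE vM21 transcripts).
Gm24265: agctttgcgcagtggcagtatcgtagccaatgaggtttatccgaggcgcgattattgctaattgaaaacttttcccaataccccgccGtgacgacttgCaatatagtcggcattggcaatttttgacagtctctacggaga
Gm24407: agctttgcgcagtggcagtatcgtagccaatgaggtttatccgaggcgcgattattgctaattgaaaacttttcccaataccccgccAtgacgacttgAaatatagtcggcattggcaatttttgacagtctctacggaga

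Most snRNA genes tested lay below 0, counted with the 4 called genes for which the class was named. Of 35 snRNA genes tested, 33 lay below 0, 25 had groups that did not overlap on the lower side, against 3.22% of all genes, and none on the higher side. Per the paper's methods, a read that fits several places was kept at its primary alignment only. Near-identical copies may thus share reads, and the 35 genes may not be separate measures. The median log2 difference was -3.94 (-3.81 with the 4 genes without a treated read set at the level of 3 reads), and -3.54 and -4.26 for the first and second set of αPD-L1 samples. Reads on these genes made up 0.0485%, 0.0573% and 0.0380% of all reads on genes in the 3 IgG2b samples and 0.00205% to 0.00667% in the 6 αPD-L1 samples. In the Nr2f6-/- libraries the share was 0.0232% to 0.0883% with IgG2b and 0.0143% to 0.0325% with αPD-L1, so that the wild-type αPD-L1 samples were below all 12 other libraries. Of 28 small nucleolar RNA genes tested, none was called, 21 lay below 0 and the median was -0.98. The part of RNA or library preparation in these values was not tested.

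**Figure D4:**
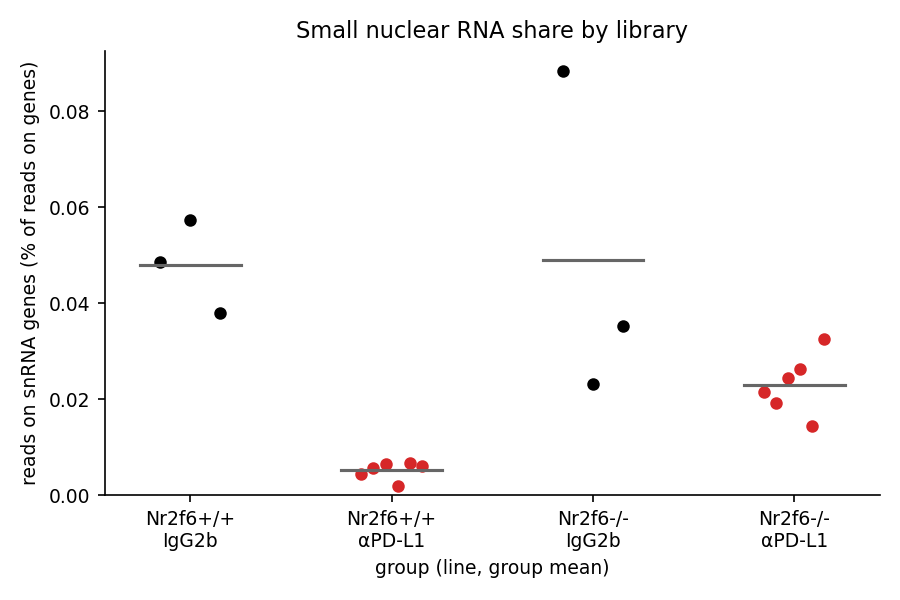
Percentage of reads on genes that fell on 35 snRNA genes (vertical axis) in each of the 18 libraries, by group, with a line at each group mean. The 6 wild-type αPD-L1 libraries, at 0.00205% to 0.00667%, lie below the other 12.

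In limma no gene was called higher with αPD-L1, while DESeq2 called 36. The 10 genes with the smallest p on the higher side were Ly6a, Tubb4b, Dgcr14, Rpl22l1, Eif3k, Cdca8, Pkm, Serpina3f, Hip1 and Prf1. In 7 of them the groups did not overlap, against 1.32% of all genes, but the 10 were picked by p in these same samples. At an unadjusted p under 0.05, 263 genes (2.19%) were higher and 605 (5.05%) lower. Ly6a, the interferon-responsive surface protein Sca-1, had 18467, 13672 and 11414 normalized counts with IgG2b and 20014 to 32459 (median 25736) with αPD-L1, and it came nearest to the threshold (0.84 ± 0.19, adjusted p = 0.0515, 0.0016 with DESeq2). Tubb4b, a β-tubulin gene, had 4764, 6326 and 5713 against 8286 to 13097 (0.80 ± 0.19, adjusted p = 0.0748, 0.0038 with DESeq2). Pkm, the pyruvate kinase of glycolysis, had 14561, 13000 and 10943 against 16264 to 25248 (0.64 ± 0.18, adjusted p = 0.192, 0.0309 with DESeq2). In edgeR none of the 10 passed.

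Among the killing genes of T cells, none of the 18 tested of 20 listed was called. Of the 18, 12 lay above 0, beside 42.6% of all genes, and the list median was 0.20. At an unadjusted p under 0.05 in limma, 7 were higher and 1 was lower, against 2.19% and 5.05% of all genes. The summed level of the list was 67272 to 74984 normalized counts with IgG2b and 72632 to 111134 with αPD-L1, so that the groups overlapped. Prf1, the pore-forming protein perforin, had 393, 437 and 153 normalized counts with IgG2b and 430 to 1587 (median 1115) with αPD-L1, and the ranges met at their edges (1.58 ± 0.47, adjusted p = 0.236). The log2 difference was 2.09 (adjusted p = 0.0759) for the first set of αPD-L1 samples and 1.07 (adjusted p = 0.592) for the second, and the sets were not compared with each other. Gzma had 475, 805 and 2717 against 866 to 3711 (1.08 ± 0.42, adjusted p = 0.553), and Gzmb, the most studied granzyme, had 13046, 7623 and 9873 against 8346 to 18977 (0.16 ± 0.24, adjusted p = 0.937). Ifng, the signature cytokine of cytotoxic and type 1 helper cells, had 2730, 2076 and 3061 against 2662 to 4909 (0.56 ± 0.25, adjusted p = 0.621), and Il2, a growth factor for T cells, 147, 444 and 308 against 87.5 to 433 (-0.76 ± 0.65, adjusted p = 0.869). Of 16 T cell cytokine and chemokine genes tested of 18 listed none was called, and 10 lay below 0 (median -0.75). The other 6 lay above 0, beside 42.6% of all genes.

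The PD-1 pathway itself held no called gene among 6. Pdcd1, the gene of PD-1, had 6709, 5445 and 8215 normalized counts with IgG2b and 7391 to 12437 (median 9723) with αPD-L1 (0.52 ± 0.20, adjusted p = 0.523). Cd274, the gene of the blocked ligand PD-L1, had 218, 275 and 440 against 86.3 to 479 (-0.38 ± 0.58, adjusted p = 0.937), and Ptpn11, the gene of SHP-2, a log2 difference of 0.19 ± 0.28. Of 11 inhibitory receptor genes none was called (median 0.34). Havcr2, the gene of TIM-3, had 1755, 1334 and 1902 against 1651 to 3365 (0.54 ± 0.23, adjusted p = 0.589), and Ctla4 a log2 difference of -0.71 ± 0.36 (adjusted p = 0.711). Of 14 exhaustion factor genes Nr4a1 was the only one called, and Tox, which fixes the exhausted state, had 3220, 3421 and 4516 against 3992 to 8832 (0.65 ± 0.20, adjusted p = 0.281).

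Housekeeping and proliferation lists held no gene called by limma. For glycolysis and hypoxia genes 19 of 21 lay above 0 (median 0.39), for ribosomal protein genes 73 of 81 (0.25), for oxidative phosphorylation 62 of 84 (0.22) and for the cell cycle 21 of 28 (0.20). Among all genes tested 42.6% lay above 0. Interferon-induced genes had a median of -0.02 over 32 genes, with 16 on either side, and regulatory T cell genes 0.21 over 14, with Foxp3 at 0.61 ± 0.50 (adjusted p = 0.868).

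Set beside Nr2f6-/- mice, whose IgG2b and αPD-L1 samples were separate from the wild-type ones, 25 of the 29 genes were also lower with αPD-L1 and 9 passed there, where 0.192% of all genes were called lower. The genes that were lower in both genotypes at an adjusted p under 0.05 were Lyz2, Ccl6, H2-Aa, H2-Ab1, H2-Eb1, Nr4a1, Fosl2, Dusp1 and Sepp1. Ccl6 had a log2 difference of -3.42 in wild-type and -3.53 in Nr2f6-/- mice, Lyz2 -2.83 and -2.87, and Nr4a1 -1.74 and -1.74. For other genes the values lay further apart. Egr1 had -1.28 in wild-type and 0.02 in Nr2f6-/- mice, where its mean was 5178 normalized counts with IgG2b and 5320 with αPD-L1 (difference of the effects 1.30 ± 0.36, adjusted p = 0.755, limma). Rgs2 had -1.97 and -0.72 (difference 1.25 ± 0.39, adjusted p = 0.974), and Tcf7 -1.45 and -0.66 (difference 0.79 ± 0.37, adjusted p = 0.974). The snRNA gene Gm24265 had -3.12 and -0.47 (difference 2.65 ± 0.63, adjusted p = 0.330), and the median of the snRNA class was -0.98 in Nr2f6-/- mice. No gene passed for a difference between genotypes in limma or edgeR, 596 of 11992 were at an unadjusted p under 0.05, and DESeq2 called 76. The 29 genes were chosen for their wild-type effect, which is part of this difference.

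**Figure D5:**
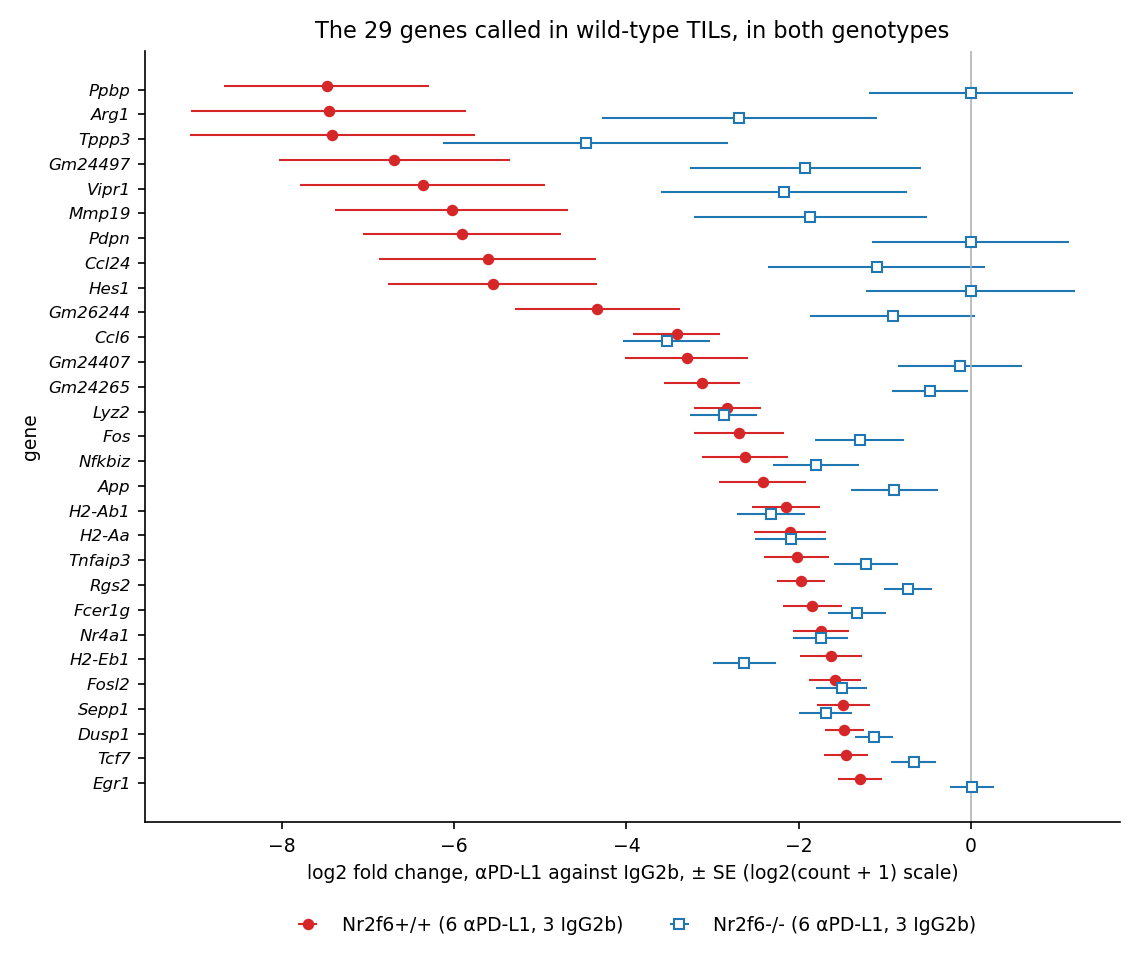
Log2 difference between αPD-L1 and IgG2b with its SE (horizontal axis, log2(count + 1) scale) for the 29 genes called in wild-type TILs, in wild-type (red circles) and Nr2f6-/- (open blue squares) mice. Lyz2, Ccl6 and Nr4a1 lie together in both genotypes, while Egr1 lies at -1.28 in wild-type and 0.02 in Nr2f6-/- mice.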

How the data were processed

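RNA of CD3+ TILs was sequenced from 18 samples with a 3′ kit on Ion Torrent. Per the methods and the labels, reads were trimmed with cutadapt and Trimmomatic, mapped to mm10 with STAR and Bowtie2 and counted per gene with HTSeq; the annotation and strand setting are not given in the sources used here, so overlapping genes are uncertain. The deposited value is a signal: the gene's read count in a sample over that sample's size factor. Dividing by the smallest step recovered whole reads for 100% of values (tolerance 0.01). The size factors of the wild-type samples were 0.956 to 1.22, and 3 reads equal 2.46 to 3.14 normalized counts; this limit reflects counting error alone. Among 153 pairs of columns, 0 were identical.

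The main test was limma 3.58.1 (R 4.3.3) on log2(value + 1), over 11992 of 37236 genes (those whose mean over all samples was 10 or more), with 1 model of 4 group means over all 18 samples, two-sided tests and Benjamini-Hochberg adjustment at 0.05. edgeR 4.0.16 and DESeq2 1.42.0 were run on the recovered reads. The tests were checked on simulated data. The ratio of Cd8a to Cd4 was compared with an exact permutation test. Genes named were all called genes, the 10 higher genes with the smallest p, list members and Nr2f6; Nfkbia and other members without a call were picked from the lists after their values were seen. The members and lists were chosen with earlier results of these data known. Whether samples of a group came from separate mice, and whether αPD-L1 replicates 4 to 6 are further mice or repeat libraries, is not given per sample, so p-values measure the spread between these samples, which may be technical. The paper counts fewer αPD-L1 samples than the labels; all labelled samples were used. Alternatives were other pseudocounts, filters, scalings, library sets, weights, tools and leaving out each sample.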

Additional observations from a re-analysis of the deposited data

Results flagged for a closer look

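In 60 groups of values from the 6 wild-type αPD-L1 samples (called and higher genes and list means), the sample farthest out was compared with the others, and 8 stood apart by Dixon's 95% limit, where chance gives about 1 in 20. All are on the scale log2(normalized count + 1). The highest sample stood apart for Tubb4b (13.7), Rpl22l1 (14.3), Tppp3 (2.86), Hes1 (1.03) and Gm24265 (8.06), and for Tppp3 and Hes1 the 5 other samples had no read. The lowest sample stood apart for the mean of the platelet and megakaryocyte list (2.54), of the inhibitory receptors (8.45) and of the cytotoxic effector genes (9.54).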

How the results depend on the processing

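For the wild-type contrast (29 genes called), the count was 60 with a pseudocount of 10, 19 with a mean of at least 50, 15 with only the groups compared in the fit, 19 with the αPD-L1 samples of the second library set only, 12 with the library set as a covariate, 87 with sample weights, 19 with edgeR and 94 with DESeq2, and 6 to 29 without single replicates. With the replicate block it was 12, of which 10 were among the 29. For wild-type replicates 1 to 3, deviations from group means correlated at 0.0148 to 0.0247 between same-numbered samples. Between samples of different number they correlated at -0.0405 to 0.0192. So few pairs cannot decide whether the numbers pair the samples. For Nr2f6-/- (39 called) it was 17 with no filter, 19 with only the groups compared, 8 with the first library set only, 152 with the second, 230 with DESeq2 and 13 to 41 without single replicates. For the genotype difference (0 called) it was 5 with no filter and 76 with DESeq2. The Cd8a to Cd4 difference was 0.267, and -0.107 to 0.563 without single samples, the lowest without αPD-L1 replicate 3, and 0.914 with the first library set only. None of the 29 genes changed direction in the 24 alternatives. For those that only left out samples this follows from the groups not overlapping. Ccl6, Gm24265, Lyz2, Rgs2 and Dusp1 passed in all 24. The cause of these changes was not tested. With 3 IgG2b samples the calls depend on each of them, and genes near 0 reads give differences that move with the pseudocount.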
